A study of Zea mays with 2 samples.

Results

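AAP45 (Zm00001d035243), AAP56 (Zm00001d012231) and NRT1 (Zm00001d044768) are 3 of the 46430 features in a single-cell RNA sequencing data set of the maize leaf, and they were taken by their gene IDs. The study's tables annotate the first pair as amino acid permeases and NRT1 as a member of the NRT1/PTR family. The samples were leaf protoplasts, that is, leaf cells freed from their walls by enzymes, of the untreated inbred line B73. Each of the 2 libraries came from the distal 6 cm of leaf 2 of V2 seedlings, with 6 plants pooled, and by the study's methods the pools were grown at different times. The libraries are replicates of 1 group with no genotype or treatment to compare, so the comparisons are between classes of cells within each library. The study had singled out these 3 genes as enriched in a subset of bundle sheath cells of its first data set. Their direction between the subsets described here is therefore not independent evidence.

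Leaves of C4 grasses split photosynthesis between mesophyll (MS) cells, which fix carbon first, and bundle sheath (BS) cells, which surround the veins and hold Rubisco. Sucrose and amino acids leave the leaf in the phloem, and in maize they pass the bundle sheath on the way. Amino acid permeases of the AAP family are known, mainly from Arabidopsis, as plasma membrane symporters that carry amino acids into cells together with protons. The NRT1/PTR family holds proton-coupled transporters, among them carriers of nitrate and of short peptides, and the substrate of a given member cannot be read from the family name. SWEET13a, SWEET13b and SWEET13c are sucrose uniporters that let sucrose out of cells for phloem loading.

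The study's qRT-PCR primers are shown because the 2 permeases carry the same kind of annotation, and each pair was designed to amplify 1 of them. Whether the primers match other transcripts was not checked, so their sequences do not show how well the genes are told apart. The primers of AAP45 and those of AAP56 share no run longer than 6 bases. Written 5′ to 3′, they are:
AAP45 forward: cgtccgatgctacctggacc
AAP45 reverse: gcgatcatgcttgcgctg
AAP56 forward: attgatcgagatccaggatacactc
AAP56 reverse: gttgcccggagcattcgaa

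The values are counts of unique molecular identifiers (UMIs), each standing for 1 captured transcript whatever its length, because only the 3′ end of a transcript is read. There were 7340 barcodes (droplets called as cells) in library 1 and 6104 in library 2, and their UMIs totalled 88081896 and 41924567. A barcode was called BS when the BS genes ME1 and RBCS1 together had at least 10 UMIs and more than the MS genes PEP1 and CAH1, and MS by the mirrored rule. This gave 248 BS, 6318 MS and 774 unassigned barcodes in library 1, and 76 BS, 5221 MS and 807 unassigned barcodes in library 2. BS barcodes were shallower, with medians of 2201 and 3479 UMIs in libraries 1 and 2, against 13405 and 6833 UMIs in MS barcodes. Only 11 barcode sequences occurred in both libraries. Levels are given as CPM, the UMIs of a gene in a class scaled by the class's total UMIs. Marker genes that the rule did not use went with the labels: PCK1, a BS decarboxylase, stood at 4438 and 5536 CPM in BS barcodes, against 10.4 and 5.87 CPM in MS barcodes. MDH6, an MS malate dehydrogenase, stood at 110 and 40.8 CPM in BS barcodes, against 2145 and 2327 CPM in MS barcodes. The phloem sucrose transporter gene SUT1 had 17 UMIs in the BS barcodes of library 1 and 0 in those of library 2, which allows up to 5.56 CPM. The gene Zm00001d024621, annotated as a phloem-specific lectin, was seen in both classes. It stood at 54.1 and 55.6 CPM in BS barcodes, against 58.0 and 161 CPM in MS barcodes. Most BS barcodes were poor in transcripts, and 55 of 248 and 25 of 76 passed the study's cell filter. To remove damaged cells, that filter also asks for under 4% chloroplast and under 0.75% mitochondrial UMIs. The medians in BS barcodes were 5.85% and 0.966% in library 1, and 2.41% and 0.739% in library 2. In MS barcodes they were 2.24% and 0.178%, and 1.23% and 0.187%.

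The first comparison asked in which photosynthetic cell type the 3 transporter genes were transcribed. All 3 were higher in BS than in MS barcodes in both libraries, and all 3 passed the test. AAP56 had 894 and 228 UMIs in the BS barcodes of libraries 1 and 2, against 68 and 9 UMIs in the far more numerous MS barcodes. As levels these are 444 CPM (95% Poisson interval 415 to 474) and 422 CPM (369 to 481) in BS, against 0.798 CPM (0.620 to 1.01) and 0.224 CPM (0.102 to 0.425) in MS. The BS level of AAP56, summed over barcodes, was thus nearly the same in the 2 libraries. In library 2, however, 74 of the 228 UMIs lay in 1 barcode. Split by SWEET13a, the level was 839 and 546 CPM in BS barcodes with it, and 255 and 393 CPM in those without.

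AAP45 had 368 and 13 UMIs in BS barcodes, against 30 and 3 UMIs in MS barcodes. Its level was 183 CPM (165 to 202) in the BS barcodes of library 1 and 24.1 CPM (12.8 to 41.2) in those of library 2, and the intervals are far apart. In MS barcodes it was 0.352 CPM (0.238 to 0.503) in library 1 and 0.0746 CPM (0.0154 to 0.218) in library 2. AAP45 was therefore lower in library 2 in both classes, while the summed BS level of AAP56 was similar, with the limits given above. Each side of this comparison is 1 library, so it carries no test.

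NRT1 was scarce, with 44 and 16 UMIs in BS barcodes against 12 and 12 UMIs in MS barcodes. Its BS level was 21.8 CPM (15.9 to 29.3) in library 1 and 29.6 CPM (16.9 to 48.1) in library 2, against 0.141 CPM (0.0728 to 0.246) and 0.298 CPM (0.154 to 0.521) in MS barcodes. Summed over all BS barcodes of library 1 the order was AAP56, then AAP45, then NRT1, with no overlap of the intervals. In the 118 of them under 2000 UMIs, AAP45 and AAP56 did not differ beyond counting error. They stood there at 777 CPM (622 to 958) and 813 CPM (654 to 998). In library 2 AAP56 again came first, but AAP45 and NRT1 did not differ beyond counting error.

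On UMIs summed per class and library, edgeR's quasi-likelihood test gave a log2 fold change of BS over MS of 9.73 ± 0.42 for AAP56 (SE, adjusted p = 9.89e-114). It gave 8.86 ± 0.51 for AAP45 (adjusted p = 1.85e-64) and 6.93 ± 0.57 for NRT1 (adjusted p = 6.34e-32). Of the 17112 genes tested, 25.8% were called in either direction, 11.1% higher and 14.7% lower in BS, so a call by itself was common. The median log2 fold change of all genes was -0.20. Within single libraries the log2 ratio of AAP56 was 9.14 (8.78 to 9.51) in library 1 and 10.79 (9.84 to 11.94) in library 2. For AAP45 it was 9.04 (8.50 to 9.62) and 8.24 (6.38 to 10.69), and for NRT1 7.29 (6.35 to 8.35) and 6.54 (5.37 to 7.75). The test compares 4 sums with 1 residual degree of freedom and leans on a variance shared by all genes, and the SE says little of how far the libraries lie apart.

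**Figure D1:**
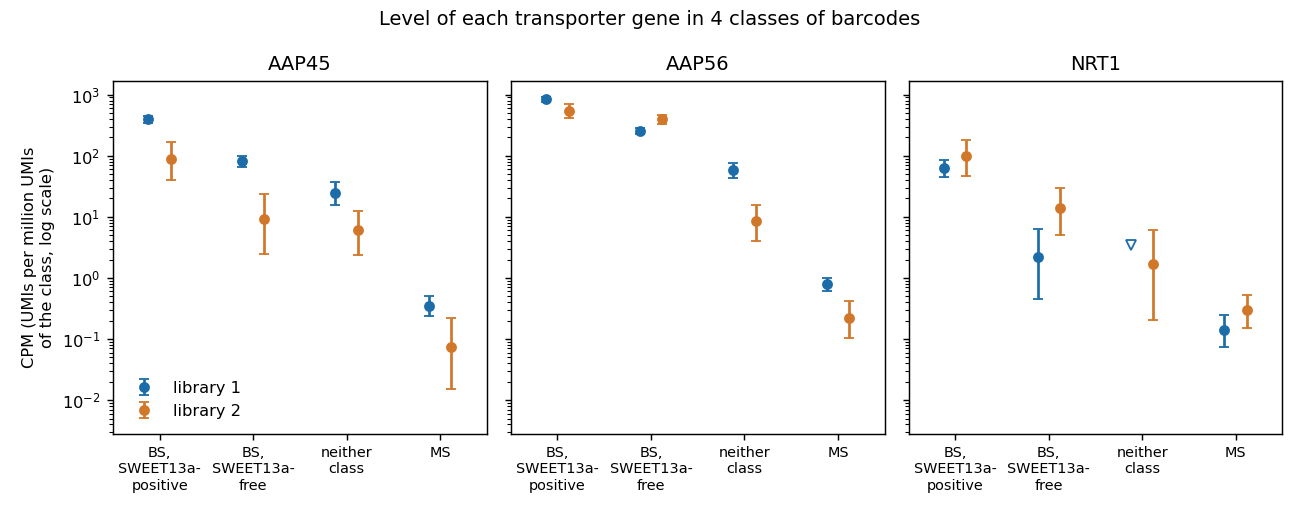
Level of AAP45, AAP56 and NRT1 (CPM, log axis) in SWEET13a-positive BS, SWEET13a-free BS, unassigned and MS barcodes of libraries 1 and 2. Points are class sums, bars are 95% Poisson intervals, and the open triangle is the limit of 3.40 CPM that 0 UMIs allow. No level in MS reaches 1 CPM, and all BS levels lie above the MS level of the same gene and library. AAP45 is lower in library 2 in both kinds of BS barcodes, while AAP56 is lower there in SWEET13a-positive and higher in SWEET13a-free barcodes.

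The few UMIs in MS barcodes lay mostly alone in their barcode. Of the MS barcodes with AAP45, 2 of 26 in library 1 and 0 of 3 in library 2 held more than 1 UMI of it. For AAP56 these were 2 of 66 and 0 of 9, and for NRT1 0 of 12 in each library. The MS barcode of library 1 with the most AAP45 UMIs held 4 of them beside 12 UMIs of SWEET13a, and MS genes made up only 53.2% of its marker UMIs. The UMIs were also set against those of the BS markers ME1 and RBCS1 in the same barcodes. Per 1000 marker UMIs there were 5.78 UMIs of AAP45 in BS barcodes against 2.72 in MS barcodes of library 1, and 0.636 against 0.564 in library 2. For AAP56 the values were 14.0 in BS against 6.17 in MS barcodes in library 1, and 11.2 against 1.69 in library 2. NRT1 went the other way, with 0.691 in BS against 1.09 in MS barcodes of library 1 and 0.783 against 2.25 in library 2. What gave the UMIs in MS barcodes was not tested.

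Unassigned barcodes fell between the classes for the permeases. AAP45 stood at 24.9 CPM in those of library 1 and 5.97 CPM in those of library 2, and AAP56 at 57.8 and 8.53 CPM. NRT1 had 0 UMIs in library 1, which allows up to 3.40 CPM, and 2 UMIs in library 2. Of the unassigned barcodes with a permease UMI, 9 of 14 with AAP45 and 16 of 30 with AAP56 in library 1 had more BS than MS marker UMIs, against 7.62% of all unassigned barcodes there. Of the 14 with AAP45, 7 held SWEET13a. The phloem gene SUT1 stood at 28.3 and 23.0 CPM in the unassigned barcodes of libraries 1 and 2. In BS barcodes it stood at 8.44 CPM in library 1, with 0 UMIs in library 2. SWEET13a stood at 107 and 37.5 CPM in unassigned barcodes, against 2160 and 1296 CPM in BS barcodes. What kind of cells the unassigned barcodes held was not tested.

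Counted per barcode, AAP56 was found in 135 of 248 BS barcodes of library 1 (54.4%, 95% exact interval 48.0 to 60.7) and in 29 of 76 of library 2 (38.2%, 27.2 to 50). The shares of MS barcodes, which serve as a background, were 1.04% and 0.172%. AAP45 was found in 103 of 248 BS barcodes of library 1 (41.5%, 35.3 to 47.9) but in only 6 of 76 of library 2 (7.89%, 2.95 to 16.4), against 0.412% and 0.0575% of MS barcodes. NRT1 was found in 19 of 248 (7.66%, 4.68 to 11.7) and 6 of 76 (7.89%, 2.95 to 16.4) BS barcodes, against 0.190% and 0.230% of MS barcodes. MS barcodes had the lower shares although they were deeper. These intervals, like all others here, cover counting error only.

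Because depth sets how often a scarce gene is seen, each barcode was also thinned to 2000 UMIs, which left out 118 BS and 1482 MS barcodes of library 1 and 25 BS and 589 MS barcodes of library 2. AAP56 was then found in 47.7% and 31.4% of BS barcodes, against 0.145% and 0.0648% of MS barcodes. AAP45 was found in 25.4% and 5.88% of BS barcodes, against 0.0620% and 0.0216% of MS barcodes. NRT1 was found in 1.54% and 1.96% of BS barcodes, against 0.0414% and 0.0864% of MS barcodes, with 2 and 1 BS barcodes behind these shares.

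**Figure D2:**
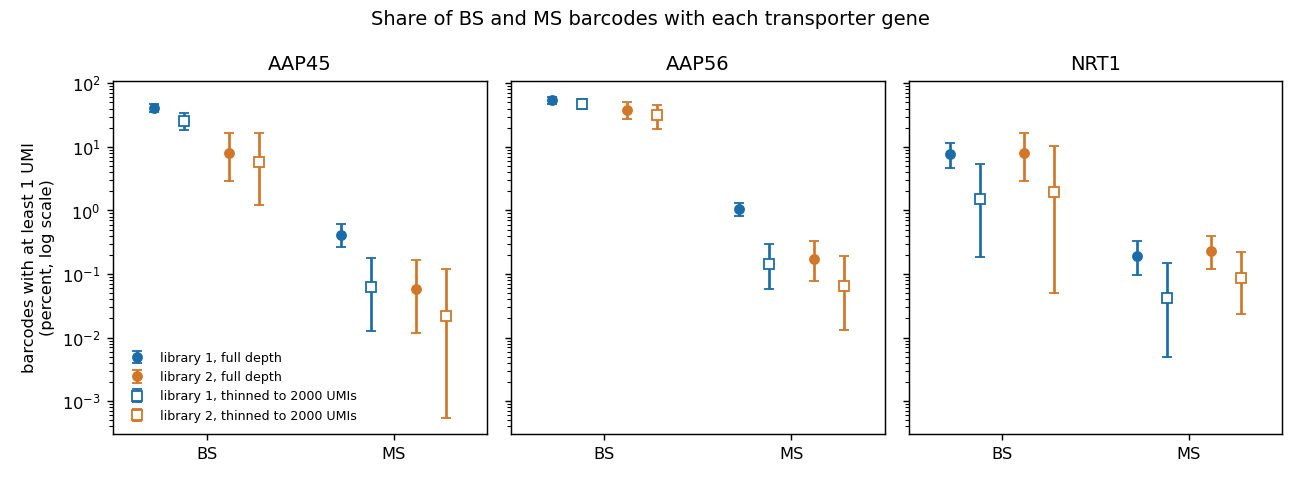
Share of BS and MS barcodes with at least 1 UMI of each gene (percent, log axis) in libraries 1 and 2, at full depth (filled circles) and after thinning to 2000 UMIs (open squares). Bars are 95% exact binomial intervals. At full depth BS shares run between 7.66% and 54.4% and MS shares stay at or below 1.04%.

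The permeases were not spread evenly over the BS barcodes that held them. In library 1, 38 barcodes had 1 UMI of AAP56, 43 had 2 to 4, 29 had 5 to 9 and 25 had 10 or more, and the highest count was 41. AAP45 had 33, 45, 18 and 7 barcodes in the same ranges and a highest count of 22. NRT1 had 9 barcodes with 1 UMI, 7 with 2 to 4 and 3 with 5 to 9, and none with 10 or more. In library 2 a single barcode carried 74 of the 228 AAP56 UMIs, 32.5% of them. That barcode had 32817 UMIs in all, with 99.9% of its marker UMIs from BS genes, 19 UMIs of SWEET13b, 71 of SWEET13c and 0 of SWEET13a. AAP45 in library 2 rested on 6 barcodes, 1 of which held 5 of its 13 UMIs.

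The level of AAP45 differed with the depth of the BS barcodes, and not in the same way in both libraries. In library 1 it was 777 CPM (622 to 958) in the 118 BS barcodes under 2000 UMIs, 397 CPM (328 to 477) in the 68 between 2000 and 10000, and 103 CPM (88.3 to 120) in the 62 above. AAP56 differed less over these bins, at 813, 599 and 391 CPM. NRT1 stood at 17.9, 17.4 and 22.9 CPM, with overlapping intervals. The purity of the barcodes moved with depth, since BS genes made up a median of 85.7% of the marker UMIs in the shallow bin and 99.6% in the deep one. In library 2, AAP45 had 0 UMIs in the 25 shallow BS barcodes, which allows up to 106 CPM, and 84.2 CPM (42.0 to 151) and 5.25 CPM (0.636 to 19.0) in the deeper bins. AAP56 there ran the other way, with 212 CPM in the shallow, 260 CPM in the middle and 494 CPM in the deep bin. The part of depth or purity in these levels was not tested.

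**Figure D3:**
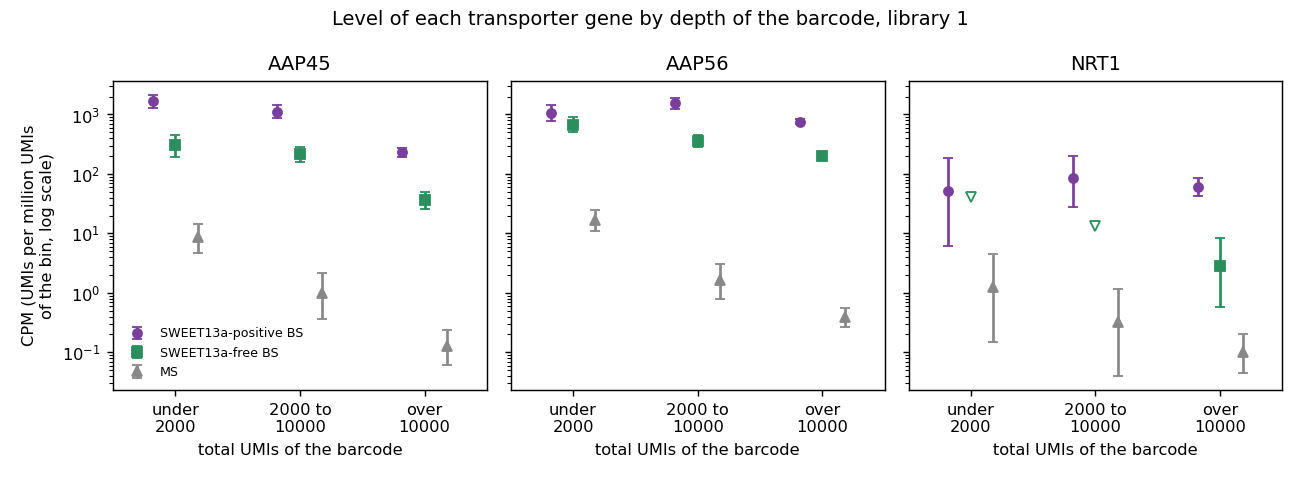
Level of each gene (CPM, log axis) in library 1 by the total UMIs of the barcode, for SWEET13a-positive BS, SWEET13a-free BS and MS barcodes. Bars are 95% Poisson intervals, and open triangles are the limits that 0 UMIs allow. AAP45 declines with depth in all 3 kinds of barcodes, and its SWEET13a-positive level lies above the SWEET13a-free level in every bin.

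The second comparison asked whether the 3 genes went with SWEET13a among BS barcodes. SWEET13a was found in 80 of 248 BS barcodes of library 1 and in 13 of 76 of library 2. Median depth was similar, with 2067 and 3736 UMIs in SWEET13a-positive barcodes of libraries 1 and 2 against 2224 and 3393 UMIs in SWEET13a-free barcodes. PCK1 differed little, at 4714 and 5119 CPM in SWEET13a-positive against 4305 and 5634 CPM in SWEET13a-free barcodes. Other BS genes outside the rule did not all stay level. RBCS2 was lower in SWEET13a-positive barcodes, at 12990 and 16399 against 14256 and 22570 CPM. GLN3 was higher in them, at 460 and 507 against 238 and 286 CPM, but did not pass the edgeR test (adjusted p = 0.486). Each of the 3 transporter genes was found in a larger share of SWEET13a-positive barcodes in both libraries. The summed level was higher for AAP45 and NRT1, whereas the size of the difference for AAP56 depended on the library.

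AAP45 was found in 53 of 80 SWEET13a-positive barcodes of library 1 (66.2%, 54.8 to 76.4), against 50 of 168 SWEET13a-free barcodes (29.8%, 23.0 to 37.3). In library 2 it was found in 4 of 13 SWEET13a-positive barcodes (30.8%, 9.09 to 61.4), against 2 of 63 SWEET13a-free barcodes (3.17%, 0.387 to 11.0). Its level was 396 CPM (349 to 447) and 87.7 CPM (40.1 to 167) in the SWEET13a-positive barcodes of libraries 1 and 2, against 80.8 CPM (66.4 to 97.4) and 9.15 CPM (2.49 to 23.4) in the SWEET13a-free barcodes. The intervals of the level do not overlap within either library, but those of the share overlap in library 2. Library 2 contributes only 9 against 4 UMIs, with 5 of the 9 in 1 barcode and 3 of the 4 in another. In the edgeR test the log2 fold change was 2.45 ± 0.42 (SE, adjusted p = 0.00303). The log2 ratio within single libraries was 2.28 (1.96 to 2.62) in library 1 and 3.05 (1.21 to 5.21) in library 2.

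NRT1 in library 1 lay mostly in SWEET13a-positive barcodes, where it was found in 16 of 80 (20.0%, 11.9 to 30.4), against 3 of 168 SWEET13a-free barcodes (1.79%, 0.370 to 5.13). These barcodes held 41 against 3 UMIs, or 62.9 CPM (45.1 to 85.3) against 2.20 CPM (0.454 to 6.44). In library 2 it was found in 3 of 13 (23.1%, 5.04 to 53.8) against 3 of 63 barcodes (4.76%, 0.993 to 13.3), and these intervals overlap. There were 10 against 6 UMIs, or 97.5 CPM (46.8 to 179) against 13.7 CPM (5.03 to 29.9). The 10 UMIs lay in only 3 barcodes. The edgeR log2 fold change was 3.69 ± 0.58 (adjusted p = 0.00184), with a log2 ratio of 4.83 (3.18 to 7.16) in library 1 and 2.62 (1.02 to 4.36) in library 2.

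AAP56 was found in 56 of 80 SWEET13a-positive barcodes of library 1 (70.0%, 58.7 to 79.7), against 79 of 168 SWEET13a-free barcodes (47.0%, 39.3 to 54.9). In library 2 it was found in 10 of 13 (76.9%, 46.2 to 95), against 19 of 63 (30.2%, 19.2 to 43.0). Its level was 839 CPM (770 to 912) and 546 CPM (412 to 709) in SWEET13a-positive barcodes, against 255 CPM (229 to 283) and 393 CPM (337 to 457) in SWEET13a-free barcodes. The intervals are apart in library 1 and overlap in library 2. AAP56 did not pass the edgeR test, and its log2 fold change was 1.04 ± 0.37 (SE, adjusted p = 0.324). The log2 ratio was 1.71 (1.51 to 1.91) in library 1 and 0.26 (-0.20 to 0.71) in library 2.

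Of the 5619 genes tested between SWEET13a-positive and SWEET13a-free BS sums, 0.997% were called in either direction, 0.712% higher and 0.285% lower, and 2 of the 3 transporter genes were among those called higher. Since the study chose the genes for this kind of difference, nothing is read from that count. The call of AAP45 was lost with DESeq2 (adjusted p = 0.0922), and so was that of NRT1 (adjusted p = 0.203). Among barcodes passing the study's filter the value for NRT1 was 2.58 on the log2 scale (edgeR adjusted p = 0.233).

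Within bins of depth in library 1 the permeases stood higher in SWEET13a-positive barcodes in each bin, and NRT1 did above 10000 UMIs. Below 2000 UMIs the intervals of AAP56 overlapped, at 1073 CPM (773 to 1450) against 673 CPM (498 to 890). Above 10000 UMIs, AAP56 was found in 23 of 23 SWEET13a-positive barcodes, against 25 of 39 SWEET13a-free barcodes, and its level was 750 against 203 CPM. AAP45 was found there in 19 of 23 against 22 of 39 barcodes (231 against 36.8 CPM), and NRT1 in 13 of 23 against 3 of 39 (61.3 against 2.83 CPM). Below 2000 UMIs, AAP45 was found in 24 of 40 SWEET13a-positive barcodes against 12 of 78 SWEET13a-free barcodes, at 1660 against 302 CPM. NRT1 was found there in 2 of 40 against 0 of 78 barcodes, and between 2000 and 10000 UMIs in 1 of 17 against 0 of 51. These are too few to compare. Library 2 had at most 5 SWEET13a-positive barcodes in a bin, and its differences varied with the bin and rested on few barcodes. Between 2000 and 10000 UMIs AAP45 stood at 428 CPM (172 to 882) against 35.0 CPM (9.53 to 89.6), in 2 of 4 against 2 of 25 barcodes. Below 2000 UMIs AAP56 stood at 1428 CPM (464 to 3332) against 40.2 CPM (1.02 to 224), in 2 of 4 against 1 of 21 barcodes. Above 10000 UMIs AAP56 stood at 544 CPM (397 to 728) in its SWEET13a-positive barcodes against 480 CPM (404 to 565) in its SWEET13a-free barcodes, with overlapping intervals. NRT1 was found there in 1 of 5 against 3 of 17 barcodes and AAP45 in 2 of 5 against 0 of 17, and below 2000 UMIs AAP45 had 0 UMIs on both sides.

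**Figure D4:**
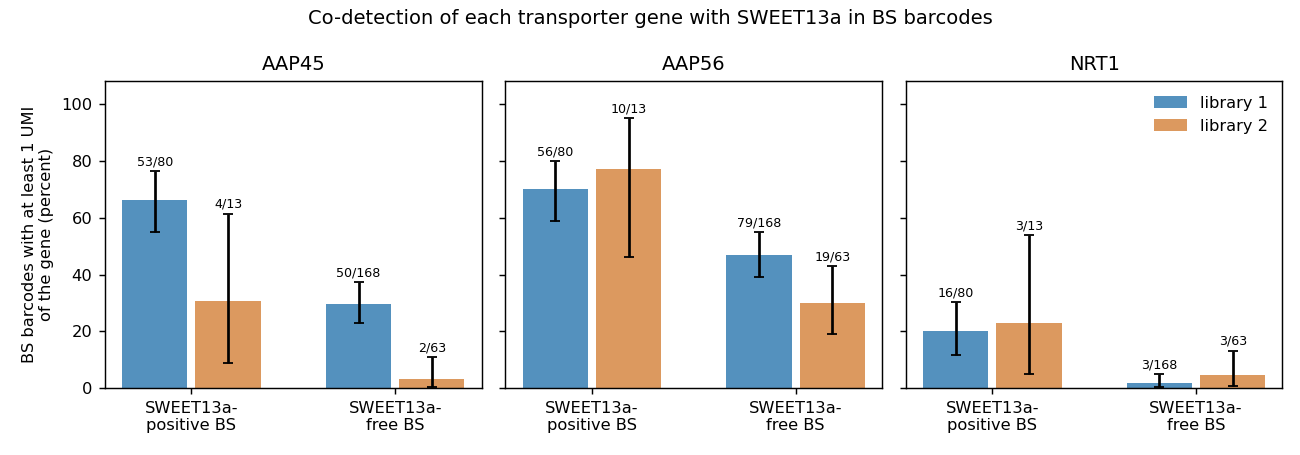
Share of SWEET13a-positive and SWEET13a-free BS barcodes with at least 1 UMI of each gene (percent) in libraries 1 and 2, with the barcodes behind each bar. Error bars are 95% exact binomial intervals. All 6 pairs of bars are higher on the SWEET13a-positive side, and NRT1 in library 1 shows 20.0% against 1.79%.

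The SWEET13a-free barcodes of library 2 that held AAP56 mostly held another SWEET13 paralog, a split chosen after its values were seen. Of the 63 SWEET13a-free barcodes there, 26 had UMIs of SWEET13b or SWEET13c, and AAP56 was found in 16 of these (61.5%, 40.6 to 79.8), against 3 of the 37 with no SWEET13 UMI (8.11%, 1.70 to 21.9). Their AAP56 level was 627 CPM against 34.8 CPM, with 74 of the 166 UMIs behind the higher value in 1 barcode. The barcodes with a paralog were also deeper, with a median of 7113 against 1819 UMIs in library 2 and 4727 against 2191 UMIs in library 1, and the part of depth in these shares was not tested. In library 1 the same split gave 16 of 25 (64.0%) against 63 of 143 (44.1%) barcodes, at 379 against 227 CPM. AAP45 in library 1 was found in 13 of 25 against 37 of 143 of these barcodes. When positive barcodes were instead defined by at least 3 UMIs of the 3 paralogs together, AAP56 was higher by 1.94 on the log2 scale (edgeR adjusted p = 1.57e-11), found in 19 of 26 positive against 10 of 50 other BS barcodes of library 2. The same 1 barcode held 74 of the 192 AAP56 UMIs in these positive barcodes of library 2. The paralogs are close in sequence, and whether reads were split between them was not checked.

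**Figure D5:**
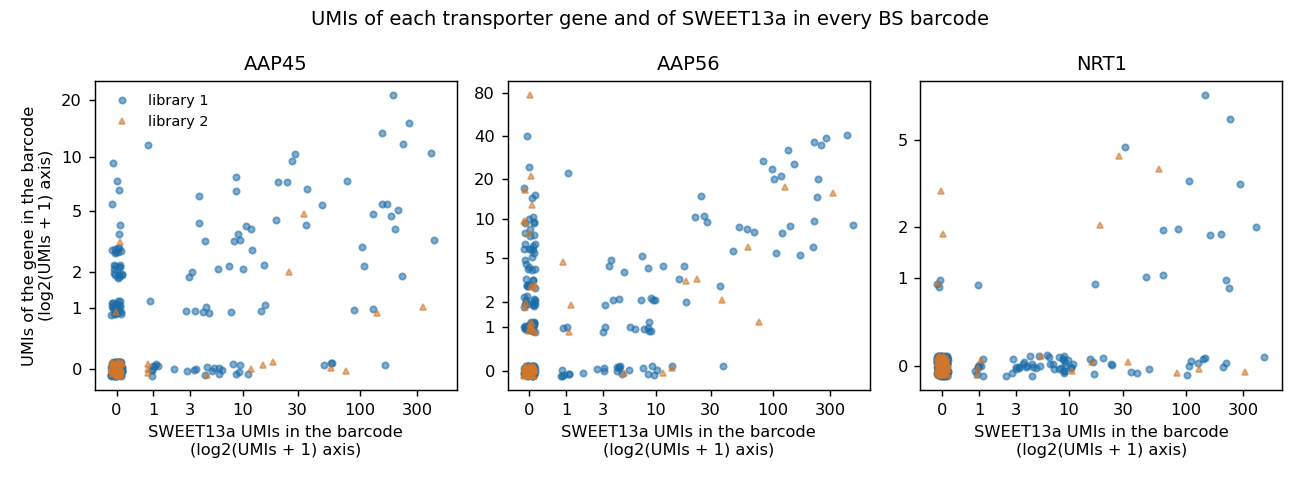
UMIs of each gene against UMIs of SWEET13a in each of the 248 BS barcodes of library 1 (circles) and 76 of library 2 (triangles), both on log2(UMIs + 1) axes, with points shifted slightly at random to show overlaps. Barcodes without SWEET13a stand in the left column, where AAP56 reaches 74 UMIs and NRT1 at most 3.

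In MS barcodes too, the permeases were found in a larger share of the barcodes with SWEET13a, on small numbers. AAP45 was found in 4 of 114 SWEET13a-positive MS barcodes of library 1 (3.51%), against 22 of 6204 SWEET13a-free ones (0.355%), and AAP56 in 6 of 114 (5.26%) against 60 of 6204 (0.967%). In library 2 each permease was found in 1 of 59 SWEET13a-positive MS barcodes, against 2 of 5162 for AAP45 and 8 of 5162 for AAP56. NRT1 was found in 0 of 114 and 0 of 59 SWEET13a-positive MS barcodes, which allows shares of up to 2.63% and 5.08%.

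The 3 genes were found in overlapping sets of BS barcodes. In library 1, 82 of the 103 barcodes with AAP45 also had AAP56, and 18 of the 19 with NRT1 had AAP56 and 16 had AAP45. All 3 were found together in 15 barcodes, 12 of which were SWEET13a-positive, and none of the 3 in 92, of which 15 were SWEET13a-positive. In library 2, 5 of the 6 barcodes with AAP45 and all 6 with NRT1 had AAP56, while 1 barcode had both AAP45 and NRT1. Deeper barcodes show more genes of every kind, and BS barcodes with NRT1 had a median of 22620 UMIs against 1992 for those without it in library 1. The part of depth in this overlap was not tested.

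Other transporter genes that the study linked to this subset of BS cells were set beside them. STP3, a hexose importer gene of the proton symporter kind, was found in 24 BS barcodes of library 1, and 22 of these had AAP45, 23 had AAP56 and 10 had NRT1. UmamiT21a, of the UmamiT family of amino acid facilitators, was found in 44, and 32 of these had AAP45, 34 had AAP56 and 13 had NRT1. AHA3, a plasma membrane proton pump gene whose kind builds the gradient that symporters use, was found in 114, and 70 had AAP45, 76 had AAP56 and 17 had NRT1. In library 2, STP3 was found in 10 BS barcodes, and 3 of these had AAP45, 8 had AAP56 and 3 had NRT1. UmamiT21a was found there in 12, and 4 had AAP45, 9 had AAP56 and 3 had NRT1. AHA3 was found there in 38, and 5 had AAP45, 20 had AAP56 and 6 had NRT1. The part of depth in these overlaps was not tested.

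Other nitrogen genes of the study's tables did not share one direction between BS and MS. The genes were drawn from tables of genes that differed between the study's own clusters. Neither their directions nor their share of calls is therefore independent, and nothing is read from that share. The list holds 27 genes. Of the 26 tested, 12 were higher and 8 lower in BS, and 6 did not pass, against 11.1% higher and 14.7% lower over all genes. The median log2 fold change of the list was -0.11, against -0.20 over all genes. DESeq2 called 18 of the 20 genes that passed, and all 20 kept their sign.

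Among 10 tested amino acid transporter genes, 3 were higher and 4 lower in BS. The largest rise was that of Zm00001d042438, annotated as a proline transporter, with 129 and 22 UMIs in BS barcodes against 8 and 1 in MS barcodes (log2 fold change 9.58 ± 0.52, edgeR adjusted p = 3.21e-71). Zm00001d018598, annotated likewise, was higher by 3.03 and Zm00001d044387 by 1.63. On the other side stood Zm00001d035157, a lysine histidine transporter, with 23 and 4 UMIs in BS against 13399 and 7934 UMIs in MS barcodes (-4.10 ± 0.39, adjusted p = 9.08e-24). The amino acid permease Zm00001d025437 (-2.64), LHT1 (Zm00001d035162, -2.11) and the cationic amino acid transporter Zm00001d033241 (-2.18) were also lower in BS.

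Of the 6 UmamiT and other WAT1-related genes, UmamiT21a (9.85), UmamiT20a (8.29) and Zm00001d045576 (6.53) were higher in BS on the log2 scale, while Zm00001d032604 (-3.54) and Zm00001d036440 (-0.86) were lower. Of the 5 nitrate, peptide and ammonium transporters, the peptide transporter Zm00001d043374 was higher by 4.85 and the NRT1/PTR members Zm00001d045667 and Zm00001d038181 by 2.15 and 2.01. The ammonium transporter Zm00001d025831 was lower, at -3.10. Among nitrogen assimilation genes, the glutamine synthetase genes GLN2 (6.80) and GLN3 (6.74) and the glutamate dehydrogenase Zm00001d034420 (2.70) were higher in BS and GLN4 (-1.23) was lower.

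Between SWEET13a-positive and SWEET13a-free BS sums, 17 of the 27 could be tested, 3 were higher, 0 were lower and 14 did not pass, against 0.712% higher and 0.285% lower over all genes. The 3 were UmamiT21a, with 266 and 53 UMIs in SWEET13a-positive against 3 and 5 UMIs in SWEET13a-free barcodes (log2 fold change 6.37 ± 0.53, edgeR adjusted p = 3.69e-07), the proline transporter Zm00001d042438 (2.10 ± 0.48, adjusted p = 0.0348) and the glutamate dehydrogenase Zm00001d034420 (1.82 ± 0.40, adjusted p = 0.0273). With DESeq2 only 1 of these 3 genes was called, and all 3 kept their sign. The list came from genes that differed between the study's clusters, and the study named UmamiT21a for a difference between its BS subclusters. Nothing is therefore read from these counts. No nitrate, peptide or ammonium transporter of the list passed, and the largest value among them was 1.35 for Zm00001d038181 (adjusted p = 0.324). Their median was 0.54 on the log2 scale, and that of all genes was -0.05.

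The genes whose levels ran most like each of the 3 were sought over 8 class sums, 4 classes in each library, among genes with at least 50 UMIs in BS barcodes (5021 compared). The measure was Pearson's r of log2(CPM + 1), given as a description, since the sums share libraries and depth. It takes no account of how large the differences between classes are. For NRT1 the closest was STP3 (r = 0.966), with 40 and 11 UMIs in SWEET13a-positive against 2 and 7 UMIs in SWEET13a-free BS barcodes, followed by Zm00001d014070 (0.962), Zm00001d019534 (0.956), Zm00001d002965 (0.948) and Zm00001d022179 (0.945). For AAP56 the closest were Zm00001d018729, annotated as a bZIP transcription factor (0.995), Zm00001d003781, annotated as an alpha carbonic anhydrase (0.993), Zm00001d029620 (0.992), PCK1 (0.992) and Zm00001d021956 (0.991). For AAP45 they were Zm00001d017880 (0.966), Zm00001d029955, annotated as a chloroplast phospholipase A1 (0.965), Zm00001d036280 (0.954), Zm00001d038916 (0.950) and Zm00001d020510 (0.950). Several of these genes were far more abundant in MS barcodes. In those of library 1, Zm00001d019534, Zm00001d002965 and Zm00001d022179 had 3069, 3097 and 5782 UMIs, against 12 of NRT1. Zm00001d038916 and Zm00001d020510 had 1463 and 2145 UMIs there, against 30 of AAP45, and Zm00001d029620 had 2050, against 68 of AAP56. The BS gene PCK1 is thus among the closest to AAP56, and the hexose transporter gene STP3 is the closest to NRT1.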

How the data were processed

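Per the study's methods, protoplasts were run on the 10x Chromium 3′ v3 system, and the authors aligned reads to B73 RefGen_v4. The deposited matrices hold raw UMI counts per gene and barcode, with Cell Ranger 3.1.0 in the file headers and STAR and Seurat 3.1 in the submitters' processing notes. All deposited barcodes were used, no doublet caller was run, and barcodes with at least 90% own markers served as an alternative. Ambient RNA was not subtracted. Read sharing between AAP45 and AAP56 was not checked.

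Counts were summed per library and class, since cells are not replicates, and tested with edgeR 4.0.16 (R 4.3.3) by quasi-likelihood, with TMM factors, filterByExpr, library and class as terms and Benjamini-Hochberg adjustment over all genes at 0.05. The 4 marker genes, and SWEET13a in the second test, were left out. Each test had 4 sums and 1 residual degree of freedom. Both classes of a library come from 1 protoplast pool, which pairs them, and deviations of the sums correlated at 0.32 and 0.40 across genes. The first test ran on 17112 genes and the second on 5619. Shares have exact Clopper-Pearson intervals and levels exact Poisson intervals at 95% (scipy 1.17.1), and a count of 0 was given the limit of 3 counts. Ratios within a library have counting intervals only. The scripts were tested on simulated data. DESeq2 1.42.0 and other factors, filters, class rules and depths were alternatives.

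Total UMIs were 88081896 in library 1 and 41924567 in library 2. The genes named are the 3 transporter genes, 6 transporter genes compared with them, the 5 genes most like each, the nitrogen genes that passed and the cell type markers. The genes and lists were chosen with earlier results of these data known.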

Additional observations from a re-analysis of the deposited data

How the results depend on the processing

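The log2 fold change of all 3 genes between BS and MS stayed above 0 and past the threshold in every alternative that gave a test. With at least 10 UMIs in every sum, AAP45 and AAP56 could not be tested between BS and MS, nor AAP45 and NRT1 by SWEET13a. Between SWEET13a-positive and SWEET13a-free BS sums no value changed sign. AAP45 lost its call with DESeq2 (2.47, adjusted p = 0.0922) and with no replicate block, that is, without pairing by library (2.36, adjusted p = 1.00). NRT1 lost its call with DESeq2 (3.60, adjusted p = 0.203), with no replicate block (3.48, adjusted p = 0.780) and under the study's filter (2.58, adjusted p = 0.233). AAP56 gained a call with 20 marker UMIs (1.24, edgeR adjusted p = 0.000548) and with 3 UMIs of the SWEET13 paralogs (1.94, adjusted p = 1.57e-11). The cause was not tested. Without the barcode richest in each gene, an alternative chosen after seeing the data, AAP45 stood at 2.31 (adjusted p = 0.00327), AAP56 at 1.33 (0.0542) and NRT1 at 4.13 (5.79e-06).

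Leaving out 1 library gives a value with no test. Between BS and MS, AAP45 then ran between 8.24 and 9.04, AAP56 between 9.14 and 10.79 and NRT1 between 6.54 and 7.29. Between SWEET13a-positive and SWEET13a-free sums AAP45 ran between 2.28 and 3.05, AAP56 between 0.26 (library 2 alone) and 1.71 (library 1 alone), and NRT1 between 2.62 and 4.83.

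Genes called between BS and MS numbered 4419, against 2690 with DESeq2, 2373 with at least 10 UMIs in every sum, where fewer genes are tested, and 2008 with no replicate block. Between SWEET13a-positive and SWEET13a-free sums 56 genes were called, 71.4% of them higher. DESeq2 called 7 (85.7% higher), RLE factors 91 (67.0%), no filter on low counts 91 (53.8%), at least 10 UMIs in every sum 26, 20 marker UMIs 149 (45.6%), the study's filter 24 and 3 UMIs of the paralogs 87. With no replicate block edgeR called 0, with 171 genes at an unadjusted p under 0.05.

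BS shares moved beyond their intervals in 23 of 42 alternatives. In library 1 AAP45 was found in 28.2% at 2 or more UMIs, 51.6% with 20 marker UMIs, 48.7% with 90% own markers, 63.6% under the study's filter, and 25.4%, 19.1% and 33.8% thinned to 2000, 1000 and 5000 UMIs. AAP56 in library 1 was found in 39.1%, 61.5%, 61.2%, 78.2%, 47.7%, 35.2% and 65.0% under these settings in the same order. AAP56 in library 2 was found in 26.3% at 2 or more UMIs, 72.0% under the study's filter and 21.2% thinned to 1000. NRT1 in library 1 was found in 4.03% at 2 or more UMIs, 23.6% under the study's filter, 1.54% thinned to 2000 and 1.85% thinned to 1000. NRT1 in library 2 was found in 1.96% thinned to 2000 and 1.52% thinned to 1000. The difference in NRT1 share by SWEET13a in library 1 was 31.5 percentage points with 20 marker UMIs, 41.4 under the study's filter and 5 thinned to 2000. All 48 such differences were above 0.

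NRT1 rests on 44 and 16 BS UMIs and AAP45 in library 2 on 13, so depth limits both.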
